A study of Mus musculus with 12 samples.

Results

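The genes described here were 42 genes of DNA replication and S phase, taken from the count table by a list of symbols. All 42 were found among the 24421 symbols of the table, and all 42 were among the 11468 genes that passed the filter on low counts. RNA-seq was performed on bone marrow-derived macrophages (BMDMs) from 3 wild-type C57BL/6 mice, named A, B and C, with 1 library of each mouse in each of 4 groups, so that a library is named by group and mouse (DMSO Ova C). BMDMs are macrophages grown from bone marrow, here over 5 days in 100 ng/mL M-CSF with fresh medium on day 3. The groups were DMSO Ova (5% DMSO with ovalbumin, the antigen alone), iBET Ova (5.0 µM I-BET151 with ovalbumin), DMSO IC (5% DMSO with insoluble IgG-opsonized ovalbumin immune complexes) and iBET IC (5.0 µM I-BET151 with the immune complexes). Exposure to ovalbumin or immune complexes lasted 4 hours in all groups. I-BET151 (iBET) blocks the binding of BET proteins to acetylated histones. The sources differ on whether iBET was added with the stimulus or shortly before it. In the paper iBET or DMSO came first, and exposure to iBET exceeded 4 hours. The paper diluted iBET from a stock in DMSO and gives no share of DMSO for these cultures. The share in the iBET wells is not stated in the sources used here. If it differed from 5%, that difference cannot be told apart from iBET. The study used mice of both sexes, and neither the age nor the sex of mice A, B and C is given.

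A cell copies its genome once per cycle. In G1, the origin recognition complex (ORC) with Cdc6 and Cdt1 loads the MCM helicase onto origins, and in S phase Mcm10, Cdc45 and the GINS complex start it. Primase and the DNA polymerases then copy the strands, held on DNA by the Pcna clamp that the RFC complex loads, while further enzymes supply deoxynucleotides and rebuild chromatin. Many of these genes are targets of E2F transcription factors. M-CSF is a growth factor for macrophages, so cultures of this kind can hold cells that are still dividing.

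The 12 libraries held 7549849 to 17387639 counts. In DMSO Ova A, the ribosomal precursor Rn45s took 77.4% of the counts and left 1768133 counts for all other genes, against 7247830 to 16899110 in the other 11 libraries. The 42 genes had between 4 and 801 counts each in that library, so its values were the least precise. The 8 macrophage markers examined summed to between 6325 and 8484 CPM in each library (counts scaled to 1 common library total, after TMM normalization), and all 8 passed the filter. Of 6 erythroid markers, 5 were at 0 in every library.

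Libraries of a mouse were compared by their deviations from the group means over the 11468 genes, and iBET Ova A and B did not go with the DMSO libraries of their own mouse. The Pearson correlations of iBET Ova A were -0.0506 with DMSO Ova A and -0.0725 with DMSO IC A, against 0.234 with DMSO Ova B and 0.271 with DMSO IC B. Those of iBET Ova B were -0.0566 with DMSO Ova B and -0.00682 with DMSO IC B, against 0.178 with DMSO Ova A and 0.258 with DMSO IC A. With iBET IC of their own mouse the correlations were 0.219 for A and 0.0918 for B, and iBET Ova B had 0.187 with iBET IC A. Over the 42 genes, iBET Ova A had 0.0916, 0.347 and 0.721 with the other libraries of mouse A (DMSO Ova, DMSO IC, iBET IC), while iBET Ova B had 0.0203, 0.0733 and -0.107 with those of mouse B and 0.288, 0.363 and 0.371 with those of mouse A. The mouse of each library is taken from the labels throughout. Results in Ova that use the pairing rest in part on these 2 libraries. The fit with mouse as a block is also given without them. For Ova only its effect size is given, since iBET Ova C alone then remains.

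The summed level of the 8 macrophage markers was higher with iBET in 6 of 6 pairs of libraries of a mouse. It ranged from 6569 to 7674 CPM in DMSO Ova, 7136 to 8484 in iBET Ova, 6325 to 7237 in DMSO IC and 7741 to 8454 in iBET IC. Of the 8 genes, 1 was called higher in Ova and 2 in IC, and 0 were called lower. Over all genes, 17.1% and 19% were called higher. A sum weighs the most abundant markers most. The list holds Fcgr1, which the paper reports as reduced in BMDMs treated with iBET. The 6 dendritic cell markers were at 0.414 to 0.514 CPM in DMSO Ova, 0.677 to 1.23 in iBET Ova, 0.477 to 0.99 in DMSO IC and 1.20 to 1.45 in iBET IC. They were also higher in 6 of 6 pairs, and the 1 of them that was tested was called higher in Ova. Sums this low rest on few counts, so the count of pairs is uncertain, also for the next 2 lists. B cell markers (5 genes, at most 1.33 CPM) and myeloid progenitor markers (8 genes, at most 5.80 CPM) were higher with iBET in 0 and 1 of the 6 pairs, with 0 of their tested genes called (edgeR). Their part in the iBET comparisons was not tested.

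Pcna had the highest level per length in DMSO Ova, at 212 CPM per kilobase of exon, higher than 98.5% of the tested genes with a known length. The helicase genes Mcm6, Mcm3 and Mcm4 followed at 39.8, 29.0 and 28.7 CPM per kilobase. The lowest levels per length were those of Cdc6 (1.52), Orc1 (0.94) and the uracil-DNA glycosylase gene Ung (0.556). The median over the 42 genes was 5.23 CPM per kilobase, beside 5.55 over the tested genes.

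The promoters of the group were searched for the E2F consensus in its 4 spellings, TTTCCCGC, TTTCGCGC, TTTGCCGC and TTTGGCGC, on both strands. The window ran from 250 bases before to 50 bases after each transcription start in RefSeq (GRCm38.p6). Of the 42 genes, 35 had a promoter in the table, and 14 of these held a match (40%). The share was 4.91% of the tested genes with a promoter and 2.605% of all genes in the table. The matched genes were Orc1, Cdc6, Cdt1, Mcm3, Mcm5, Mcm6, Mcm7, Gins3, Pola1, Pole2, Pold1, Rfc3, Lig1 and Uhrf1. Those with no promoter listed were Mcm4, Gins1, Gins2, Gins4, Prim2, Pole and Rfc2. A match is a run of letters and not a measured binding site. The stretches of 3 genes are printed because they span a helicase gene that fell with iBET (Mcm6), a helicase gene that passed only with mouse as a block (Mcm5) and the catalytic polymerase alpha gene, which did not pass it either (Pola1). Matches are in capitals, and in Mcm6 and Mcm5 matches on opposite strands overlap in 1 run of capitals. The 3 stretches are at chr1:128359720-128359840 on the minus strand, chr8:75109331-75109392 on the plus strand and chrX:93632261-93632318 on the minus strand. They lie 135 to 15, 178 to 117 and 163 to 106 bases before the RefSeq start of the gene.
Mcm6: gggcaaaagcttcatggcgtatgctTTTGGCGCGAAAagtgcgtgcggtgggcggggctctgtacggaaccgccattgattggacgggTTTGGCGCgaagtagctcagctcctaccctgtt
Mcm5: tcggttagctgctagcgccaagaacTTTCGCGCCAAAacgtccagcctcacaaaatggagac
Pola1: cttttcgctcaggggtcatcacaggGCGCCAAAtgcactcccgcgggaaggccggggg

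To assess the effect of iBET on these genes without immune complexes, iBET Ova was compared with DMSO Ova. Of the 42 genes, 11 fell and 1 rose (edgeR quasi-likelihood test, Benjamini-Hochberg adjusted p under 0.05 over all 11468 genes). Over all genes tested, 14.2% were called lower and 17.1% higher, and the 11 lower genes were 26.2% of the group. The genes that fell were Cdt1, Mcm2, Mcm3, Mcm4, Mcm6, Mcm10, Gins1, Gins3, Rfc3, Rfc4 and Ung, and the gene that rose was Slbp, which binds the stem loop of histone mRNA. The median log2 fold change of the group was -0.47, beside 0.02 over all genes. In bulk RNA, fewer cells in S phase and less RNA of these genes per cell cannot be told apart.

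Within each mouse, the median change of the group in Ova was -0.35, -0.48 and -0.35 on the log2 scale in mice A, B and C. Genes lower in all 3 mice numbered 25 of 42 (59.5%), beside 27% of all genes. In 10 of the 42 genes all 3 iBET libraries were below all 3 DMSO libraries. That share is only a little above the 19.9% of all genes for which this held. The 3 mice are an animal block shared by the groups. With mouse as a block in the fit, 22 genes were called lower and 1 higher, and 17.9% of all genes were called lower. The block was also fitted without iBET Ova A and B, a choice made after seeing the data. Mouse C then gives the only iBET Ova library, and that fit takes it to vary like the other groups. The median log2 fold change of the group in Ova was then -0.35, and calls are not given. DESeq2 without the block called 12 lower. The count of 11 went to 4 if DMSO Ova C was left out, 4 for iBET Ova A, 5 for iBET Ova B, 5 for mouse A and 1 for mouse B. It was 11 if DMSO Ova A, the library rich in Rn45s, was left out.

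In the presence of immune complexes, iBET IC was compared with DMSO IC, which shares no library with the comparison in Ova but comes from the same 3 mice. Again 11 genes fell and Slbp rose, with 15.8% of all genes called lower and 19% higher. The median log2 fold change of the group was -0.49, beside -0.00 over all genes, and -0.46, -0.33 and -0.46 within mice A, B and C. Genes lower in all 3 mice numbered 27 of 42 (64.3%), beside 33% of all genes. All 3 iBET libraries were below all 3 DMSO libraries for 13 genes, and this held for 22.3% of all genes. The block fit called 19 genes lower and 1 higher, with 19.8% of all genes called lower. Without iBET Ova A and B it called 20 lower, beside 21.4%. DESeq2 without the block called 14 lower. Here the count of 11 went to 4 if DMSO IC C was left out, 4 for iBET IC A, 3 for iBET IC B, 5 for mouse A and 1 for mouse B.

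Called lower in both stimulations were 10 genes, 23.8% of the group, beside 11.6% of all genes. They were Cdt1, Mcm2, Mcm3, Mcm4, Mcm6, Mcm10, Gins1, Gins3, Rfc3 and Ung. Rfc4 was called lower in Ova and Prim1 in IC, and 30 genes were called lower in neither. The difference between the 2 iBET effects was tested for each gene as an interaction, and 0 of the 42 genes passed (edgeR, 0 at an unadjusted p under 0.05, 0 by DESeq2, 0 with the block). The share over all genes was 0%. The block fit called 19 genes lower in both stimulations, beside 14.7% of all genes, namely these 10 and Cdc6, Mcm5, Cdc45, Prim1, Pold1, Fen1, Rrm1, Tk1 and Uhrf1, and a further 3 (Mcm7, Rfc4 and Rpa2) in Ova.

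**Figure D1:**
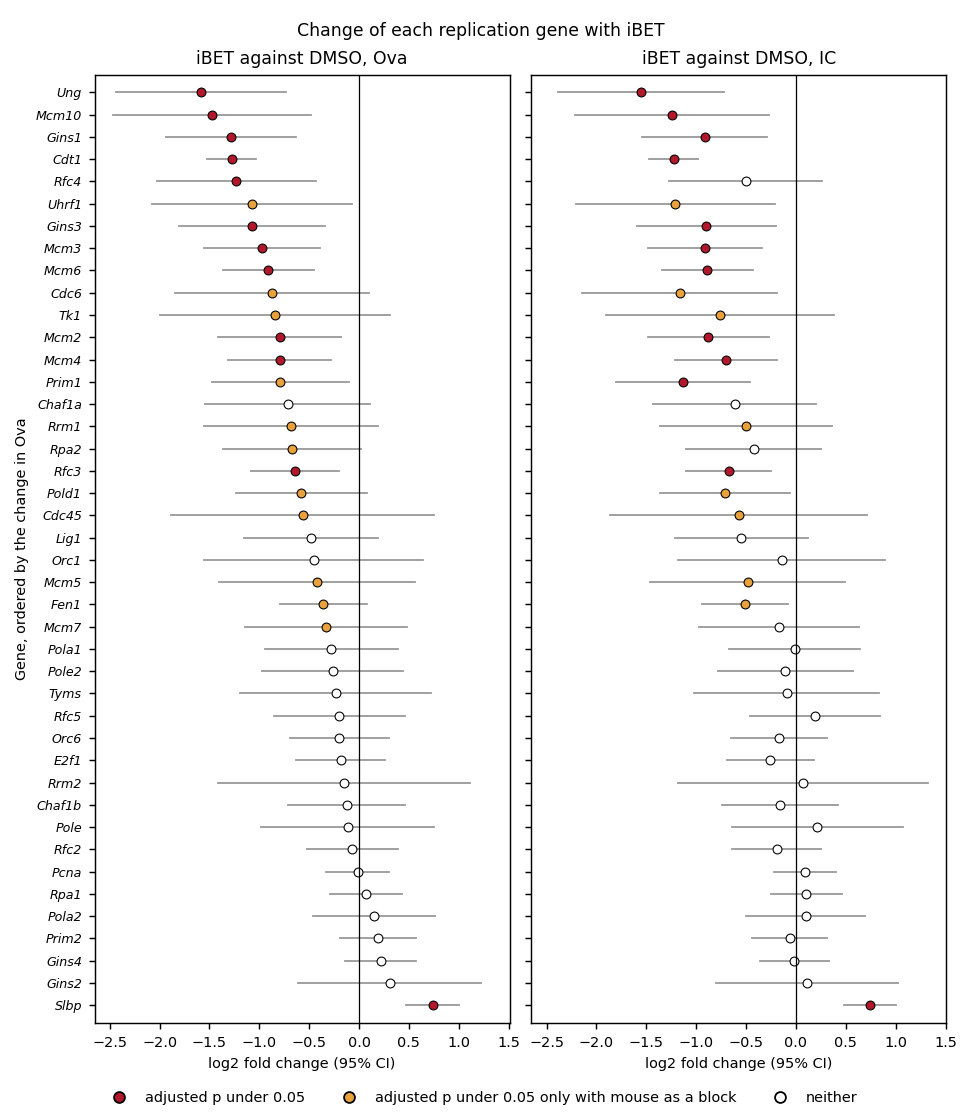
Log2 fold change of each of the 42 genes for iBET against DMSO in Ova (left) and IC (right), with bars for the 95% confidence interval of the edgeR fit, n = 3 libraries a group. Red points passed at an adjusted p under 0.05, orange points passed only with mouse as a block, and open points passed in neither; in both panels 11 red points lie below 0 and Slbp above it.

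Of the 10 genes of origin licensing, 5 fell in Ova (Cdt1, Mcm2, Mcm3, Mcm4, Mcm6) and the same 5 in IC, with medians of -0.80 and -0.79 on the log2 scale. Counts by role, here and below, stand beside 14.2% of all genes called lower in Ova and 15.8% in IC. No role was tested as a set. Cdt1 (chr8:122568015-122573554, plus strand, GRCm38), the loader of the MCM helicase, measured 39.0, 41.6 and 41.0 CPM in the DMSO Ova libraries of mice A, B and C. In iBET Ova it measured 18.4, 15.6 and 16.2 CPM. Every DMSO library was above every iBET library, and the mice were close to each other in both groups. The means were 40.5 ± 1.32 and 16.7 ± 1.47 CPM (SD, n = 3), a log2 fold change of -1.28 ± 0.11 (SE, adjusted p = 8.13e-06). In IC, Cdt1 measured 32.7, 38.7 and 39.0 CPM with DMSO and 15.8, 15.0 and 16.4 CPM with iBET. The groups again did not overlap, and the log2 fold change was -1.22 ± 0.11 (adjusted p = 8.23e-06). The call of Cdt1 held in all 12 fits without 1 library and in all 3 without 1 mouse, in both stimulations, with adjusted p-values up to 0.0076.

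The 6 subunits of the MCM2-7 ring, which unwinds the duplex ahead of the fork, did not all pass the test. Mcm6, with the second highest level per length of the 42 genes, measured 194, 165 and 198 CPM in DMSO Ova and 76.3, 93.0 and 127 CPM in iBET Ova. Its libraries did not overlap, and the log2 fold change was -0.91 ± 0.21 in Ova (adjusted p = 0.00611) and -0.89 ± 0.21 in IC (adjusted p = 0.00604). Mcm3 had log2 fold changes of -0.97 and -0.91, Mcm4 of -0.80 and -0.70, and Mcm2 of -0.80 and -0.88, in Ova and IC. The adjusted p of Mcm2 in Ova was 0.0495, its groups overlapped there, and leaving out single libraries kept its call in 3 cases of 12 (iBET Ova C, DMSO IC B and DMSO IC C). In Ova the call of Mcm3 was lost if iBET Ova A or B was left out, and that of Mcm4 also for DMSO Ova C. In IC the calls of Mcm2, Mcm3 and Mcm4 were each lost if DMSO IC C, iBET IC A or iBET IC B was left out. Each of the calls of Mcm2, Mcm3, Mcm4 and Mcm6 was lost without mouse A and without mouse B, in both stimulations. Mcm5 and Mcm7 were not called in either stimulation.

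Mcm5 (chr8:75109569-75128439, plus strand, GRCm38) measured 45.7, 85.7 and 124 CPM in the DMSO Ova libraries of mice A, B and C, and 44.7, 52.6 and 99.2 CPM in iBET Ova. In IC the values were 54.0, 85.5 and 136.5 CPM with DMSO (mean 92.0 ± 41.6) and 43.8, 59.5 and 94.9 CPM with iBET (mean 66.1 ± 26.2, SD, n = 3). The groups overlapped, the order of the mice was A, B, C in all 4 groups, and every mouse had its lower value with iBET. The log2 fold changes were -0.42 ± 0.45 in Ova (adjusted p = 0.516) and -0.48 ± 0.44 in IC (adjusted p = 0.429). In the block fit they were -0.38 (adjusted p = 0.0206) and -0.45 (adjusted p = 0.00627).

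Mcm7 was also called with the block in Ova, at a log2 fold change of -0.31 (adjusted p = 0.0343), and Cdc6, the ATPase that works with ORC, in both (log2 fold changes of -0.81 and -1.06, adjusted p = 0.0294 and 0.00576). Without the block, Cdc6 had log2 fold changes of -0.87 ± 0.44 and -1.17 ± 0.45 (adjusted p = 0.159 and 0.0622). The ORC subunits Orc1 and Orc6 were called in neither fit, with log2 fold changes between -0.46 and -0.14. Orc1 had 6 counts in DMSO Ova A. Exons of Orc1, Orc6 and Mcm7 overlap those of a gene on the other strand, and the strand setting of the counting is not given in the sources used here, so their values are uncertain. This holds as well for Cdc45, Gins2, Pole, Fen1, Lig1, Tk1 and Chaf1a.

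**Figure D2:**
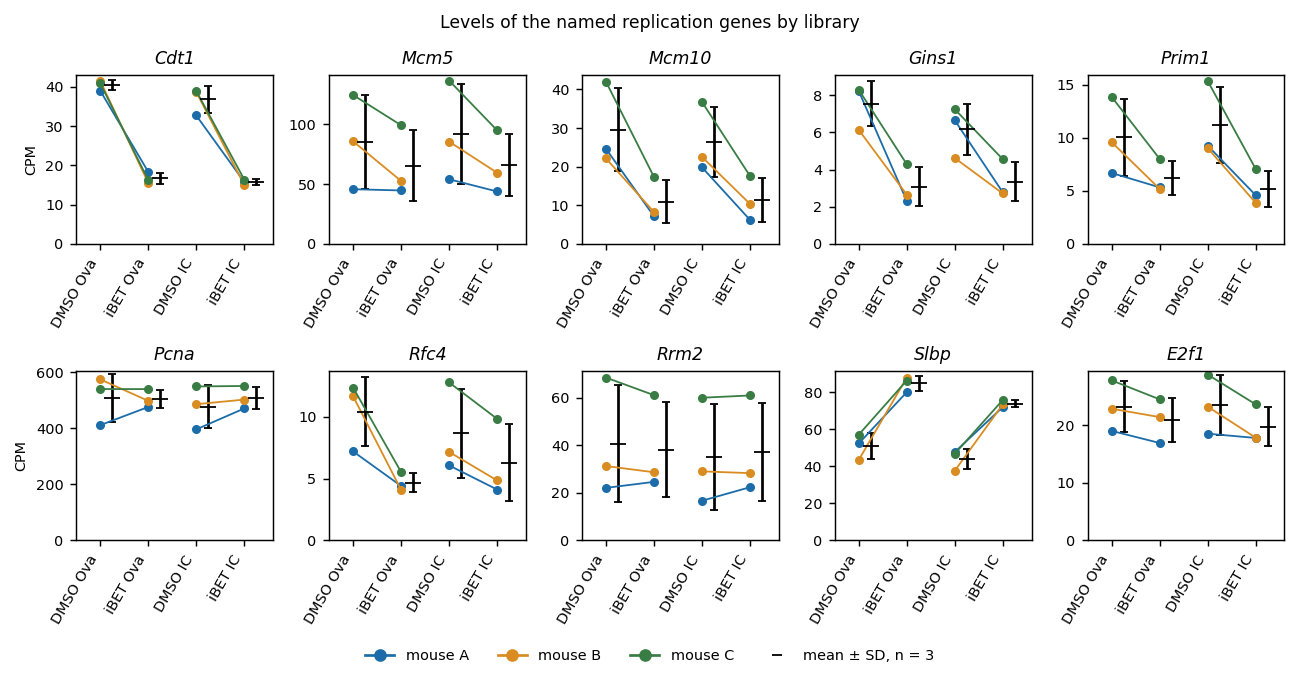
Level of 10 of the genes in each library (CPM, linear axes from 0), with lines joining the DMSO and iBET libraries of a mouse within Ova and within IC and black bars for the mean ± SD of 3 libraries. Cdt1 fell to between 15.0 and 18.4 CPM in every iBET library, Slbp rose in every mouse, and the green line of mouse C lies at the top in all 4 groups for Mcm5, Mcm10, Gins1, Prim1, Rfc4, Rrm2 and E2f1.

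Of the 6 genes of helicase activation, 3 fell in both stimulations (Mcm10, Gins1, Gins3), and the medians were -0.82 and -0.74 on the log2 scale. Mcm10 (chr2:4989714-5012791, minus strand), a factor that helps to start the loaded helicase, measured 24.7, 22.2 and 42.03 CPM in DMSO Ova and 7.18, 8.27 and 17.4 CPM in iBET Ova. The IC values were 19.9, 22.6 and 36.8 CPM with DMSO and 6.24, 10.4 and 17.6 CPM with iBET. Mouse C was highest in each group, and all iBET libraries were below all DMSO libraries in both stimulations. The log2 fold changes were -1.47 ± 0.45 in Ova (adjusted p = 0.0285) and -1.24 ± 0.44 in IC (adjusted p = 0.0489). If DMSO Ova C, iBET Ova A or iBET Ova B was left out, the call in Ova was lost (adjusted p up to 0.123), and the call in IC held in 4 cases of 12 (adjusted p up to 0.165, for iBET IC A). Both calls were lost without mouse A, without mouse B and with no filter on low counts. The block fit gave Mcm10 adjusted p-values of 3.33e-05 and 5.04e-05.

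Gins1 (chr2:150905400-150931280, plus strand), a subunit of the 4-protein GINS complex, was read at low depth. It measured 8.22, 6.13 and 8.29 CPM in DMSO Ova, from 16, 80 and 100 counts, and 2.32, 2.65 and 4.29 CPM in iBET Ova, from 30, 24 and 38 counts. For IC the values were 6.65, 4.62 and 7.24 CPM with DMSO and 2.78, 2.71 and 4.55 CPM with iBET. The groups did not overlap in either stimulation. The log2 fold changes were -1.28 ± 0.30 (adjusted p = 0.00643) and -0.92 ± 0.29 (adjusted p = 0.026), and the call in IC was lost if DMSO IC A, DMSO IC C, iBET IC A or iBET IC B was left out (adjusted p up to 0.105). Both calls were lost without mouse B, and that in IC also without mouse A.

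The 4 GINS subunits, which act in 1 complex, differed in their values. Gins3 fell, with log2 fold changes of -1.07 ± 0.34 in Ova (adjusted p = 0.0285) and -0.90 ± 0.32 in IC (adjusted p = 0.0459). Its libraries were apart in Ova and overlapped in IC, and leaving out single libraries kept the call in 8 cases of 12 in Ova and 3 of 12 in IC (adjusted p up to 0.182, for DMSO IC C). Gins2 had 0.31 (95% CI -0.61 to 1.22) and 0.11 (95% CI -0.80 to 1.02), and Gins4 had 0.21 (95% CI -0.14 to 0.57) and -0.02 (95% CI -0.36 to 0.33), none of them called. The difference between subunits was not tested. Cdc45, which joins MCM and GINS in the active helicase, had log2 fold changes of -0.56 ± 0.60 and -0.58 ± 0.59 (adjusted p = 0.515 and 0.476), and in the block fit of -0.43 and -0.56 (adjusted p = 0.0329 and 0.00536).

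Among the 7 polymerase and primase genes, Prim1 was called in IC and 0 in Ova (edgeR; 1 of the 7, Prim1, at an unadjusted p under 0.05 in Ova; 0 by DESeq2), with medians of -0.27 in Ova and -0.06 in IC. Prim1 (chr10:128015168-128030037, plus strand), the catalytic subunit of primase, measured 9.26, 9.02 and 15.3 CPM in DMSO IC and 4.59, 3.88 and 7.07 CPM in iBET IC. All iBET libraries were below all DMSO libraries in IC. The log2 fold change there was -1.13 ± 0.31 (adjusted p = 0.0131), and the call was lost if DMSO IC C, iBET IC A, iBET IC B or mouse B was left out.

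In Ova, Prim1 measured 6.68, 9.58 and 13.8 CPM with DMSO and 5.32, 5.18 and 8.01 CPM with iBET, and the groups overlapped. The log2 fold change of -0.79 ± 0.31 had an adjusted p of 0.0751 and of 0.00375 in the block fit, and the gene also passed if DMSO Ova A was left out. Prim2, the other primase subunit, had log2 fold changes of 0.19 (95% CI -0.19 to 0.57) and -0.06 (95% CI -0.44 to 0.31). Pold1, the catalytic subunit of polymerase delta, had -0.58 and -0.71 (adjusted p = 0.169 and 0.0837), and with the block -0.53 and -0.70 (adjusted p = 0.0135 and 0.00178). Pola1 and Pola2 of polymerase alpha and Pole and Pole2 of polymerase epsilon were called in neither fit, with log2 fold changes between -0.28 and 0.21.

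In the clamp and its loader, 2 of 5 genes fell in Ova (Rfc3, Rfc4) and 1 in IC (Rfc3). The count in IC is near the share of 15.8% over all genes. Pcna (chr2:132249162-132253314, minus strand), the sliding clamp of the polymerases, measured 411, 575 and 540 CPM in DMSO Ova and 476, 498 and 540 CPM in iBET Ova. The values in IC were 396, 486 and 550 CPM with DMSO and 471, 503 and 551 CPM with iBET. The groups overlapped in both stimulations, and mouse A was lowest in each of the 4 groups. The means in Ova were 508.9 ± 86.2 and 504.8 ± 32.4 CPM (SD, n = 3). The log2 fold change was -0.01 (95% CI -0.33 to 0.30, adjusted p = 0.955) in Ova and 0.09 (95% CI -0.22 to 0.40, adjusted p = 0.66) in IC. Its sign in either stimulation depended on which library was included.

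Rfc4 (chr16:23113943-23127737, minus strand), a small subunit of the loader, measured 7.19, 11.7 and 12.4 CPM in DMSO Ova and 4.40, 4.08 and 5.53 CPM in iBET Ova. In IC it measured 6.06, 7.15 and 12.8 CPM with DMSO and 4.11, 4.84 and 9.83 CPM with iBET. The groups were apart in Ova and overlapped in IC. The log2 fold change was -1.23 ± 0.37 in Ova (adjusted p = 0.0228) and -0.51 ± 0.35 in IC (adjusted p = 0.29), and the difference of 0.73 between them did not pass (95% CI -0.38 to 1.83). Its call in Ova was lost if DMSO Ova B, DMSO Ova C, iBET Ova A, iBET Ova B or mouse B was left out, and in IC the gene passed if iBET IC C was left out. Its exons overlap those of Eif4a2 on the other strand, a limit that also touches Rfc2 and Rfc5.

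Rfc3, another small subunit, had log2 fold changes of -0.65 ± 0.20 (adjusted p = 0.0288) and -0.67 ± 0.20 (adjusted p = 0.018), with iBET libraries below DMSO libraries in both stimulations. The call was lost in Ova for DMSO Ova B, DMSO Ova C, iBET Ova A or iBET Ova C left out, and in IC for DMSO IC A or iBET IC B. Rfc2 and Rfc5 were not called, with log2 fold changes between -0.20 and 0.19. None of the 4 genes of single-strand binding and Okazaki fragment joining was called in either stimulation by edgeR (0 at an unadjusted p under 0.05 in Ova, 1 in IC, Fen1). Fen1, the flap endonuclease, had log2 fold changes of -0.36 and -0.51, and passed in the block fit (adjusted p = 0.0152 and 0.000961). In DESeq2 Fen1 passed in IC (adjusted p = 0.0488). Rpa2, a subunit of the single-strand binding protein, had -0.67 ± 0.32 in Ova and passed with the block (adjusted p = 0.0467). Rpa1, the large subunit, had 0.07 and 0.10, and the ligase gene Lig1 had -0.48 and -0.55, called in neither fit.

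The 4 genes of deoxynucleotide supply were not called in either stimulation (edgeR; 0 at an unadjusted p under 0.05; 0 by DESeq2). Rrm2 (chr12:24708241-24714146, plus strand), the regulated subunit of ribonucleotide reductase, measured 22.1, 31.3 and 68.6 CPM in DMSO Ova and 24.6, 28.7 and 61.1 CPM in iBET Ova. With IC the levels were 16.7, 29.0 and 60.1 CPM with DMSO and 22.4, 28.3 and 61.0 CPM with iBET. The groups overlapped, and mouse C was far above the other mice in every group. The log2 fold changes were -0.15 (95% CI -1.42 to 1.11) and 0.07 (95% CI -1.19 to 1.32), and neither passed with the block (adjusted p = 0.762 and 0.416). The sign of both changed in some of the fits without 1 library.

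Rrm1, the large subunit of the same enzyme, had log2 fold changes of -0.68 ± 0.40 and -0.50 ± 0.39 (adjusted p = 0.22 and 0.353). In the block fit these were -0.72 and -0.49 (adjusted p = 0.000314 and 0.00326). Thymidine kinase Tk1 had -0.84 ± 0.52 and -0.76 ± 0.52, and with the block -0.82 and -0.73 (adjusted p = 0.000712 and 0.00107). Thymidylate synthase Tyms had -0.23 and -0.09, called in neither fit.

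Of the 5 genes of chromatin, histone mRNA and uracil repair, Ung fell and Slbp rose in both stimulations. As counts, 1 lower and 1 higher of 5 are near the shares over all genes. Slbp (chr5:33634952-33652574, minus strand) measured 52.4, 43.5 and 57.1 CPM in DMSO Ova and 80.1, 88.0 and 86.4 CPM in iBET Ova. In IC it measured 47.7, 37.6 and 46.8 CPM with DMSO and 72.1, 73.4 and 75.9 CPM with iBET. Every iBET library was above every DMSO library. The log2 fold changes were 0.74 ± 0.12 in both stimulations (adjusted p = 0.000676 and 0.000498), and the call held in all 12 fits without 1 library and all 3 without 1 mouse in each. Exons of Slbp overlap those of Gm10459 on the other strand.

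Ung, which removes uracil from DNA, was the lowest of the 42 genes per length and had 4 to 51 counts a library. It measured 2.05, 2.84 and 4.23 CPM in DMSO Ova and 1.31, 0.772 and 1.13 CPM in iBET Ova. The groups did not overlap, and the log2 fold changes were -1.58 ± 0.39 in Ova (adjusted p = 0.00882) and -1.55 ± 0.38 in IC (adjusted p = 0.00751). If DMSO Ova C was left out the adjusted p in Ova was 0.062. Without mouse B the calls in both stimulations were lost, and without mouse C that in Ova.

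Uhrf1, which brings the maintenance DNA methyltransferase to new DNA, had log2 fold changes of -1.07 ± 0.45 and -1.21 ± 0.45 (adjusted p = 0.0966 and 0.0587). It passed with mouse as a block (adjusted p = 2.68e-05 and 8.73e-06) and in DESeq2 without one (adjusted p = 0.0378 and 0.0144). Chaf1a and Chaf1b, subunits of the histone chaperone CAF-1, were called in neither fit, with log2 fold changes between -0.72 and -0.13.

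E2f1 (chr2:154559407-154569892, minus strand), a transcription factor of S-phase genes, measured 19.0, 22.8 and 27.8 CPM in DMSO Ova and 16.9, 21.4 and 24.5 CPM in iBET Ova. In IC it measured 18.5, 23.2 and 28.8 CPM with DMSO and 17.8, 17.8 and 23.6 CPM with iBET. The groups overlapped, and the iBET value was the lower in each of the 6 pairs. The log2 fold changes were -0.18 (95% CI -0.63 to 0.26) and -0.26 (95% CI -0.69 to 0.18), and neither passed with the block. With 1 surrogate variable in the fit E2f1 passed in IC. Of the 14 genes with an E2F match in the promoter 5 were called lower in each stimulation, and of the 21 with a promoter and no match 4. Over all genes tested, 14.2% were called lower in Ova and 15.8% in IC. Medians with and without a match were -0.61 and -0.36 in Ova, and -0.69 and -0.43 in IC. The difference between the 2 sets was not tested.

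**Figure D3:**
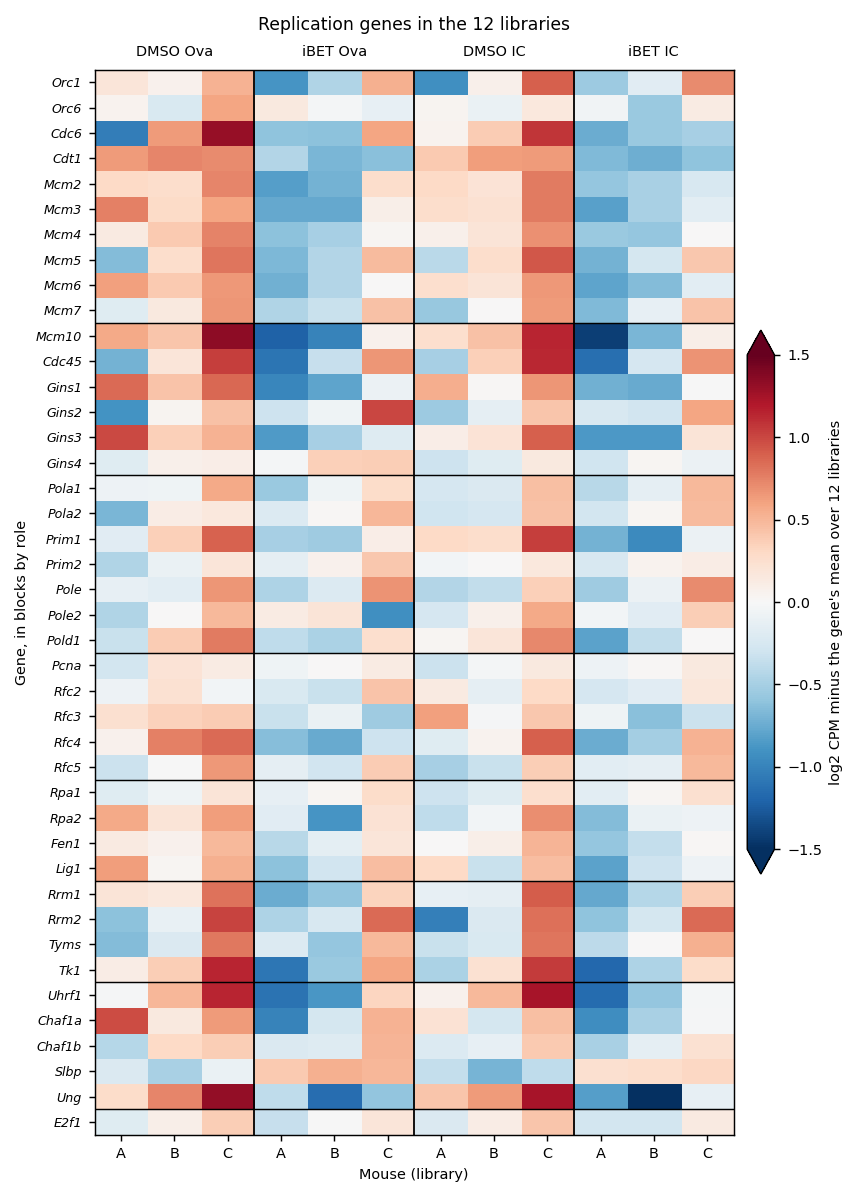
Log2 CPM of each of the 42 genes in the 12 libraries, minus the mean of the gene, in blocks by role from origin licensing (top) to E2f1 (bottom). Red is above and blue below the mean; the columns of mouse C are the reddest of each group, and the rows of Cdt1 and Slbp divide by iBET rather than by mouse.

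The groups that received immune complexes were compared with those given ovalbumin alone to assess whether the stimulus moved these genes. In DMSO, 0 of 42 genes passed (edgeR; 0 at an unadjusted p under 0.05; 0 by DESeq2; 0 with the block), beside 1.22% of all genes. In iBET, 0 of 42 passed (edgeR; 1 at an unadjusted p under 0.05, Gins4; 0 by DESeq2; 0 with the block), beside 0.349% of all genes. The median log2 fold change of the group was -0.13 in DMSO and -0.05 in iBET, beside -0.01 over all genes in each. Values of single genes lay between -0.42 and 0.11 in DMSO and between -0.49 and 0.39 in iBET.

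The width of the intervals limits these comparisons. For Cdt1 the change with IC in DMSO was -0.14 (95% CI -0.39 to 0.10), and for Pcna it was -0.10 (95% CI -0.41 to 0.22). For Rrm2, whose mice lay far apart, it was -0.26 (95% CI -1.53 to 1.00), an interval that spans more than a 2-fold change in either direction. The sign of the median over the group changed with single libraries, and in DMSO it was 0.10 if DMSO Ova C was left out and -0.36 if DMSO IC C was.

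The mice differed in the level of these genes. The library of mouse C was the highest of its group in all 4 groups for 29 of the 42 genes (69%), beside 7.25% of all genes tested, and no library of mouse A or B was so for any of the 42. Mouse C was highest for 35 of the 42 genes in DMSO Ova, 36 in iBET Ova and 40 in both IC groups. Averaged over the groups, mouse C was above mouse A by 1.69 on the log2 scale for Cdc45, 1.55 for Rrm2, 1.40 for Tk1 and 1.26 for Mcm5. For Cdt1 the difference was 0.05, for Slbp 0.07 and for Rfc3 -0.13.

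In 10 of the 42 genes mouse C exceeded mouse A by at least 1 on the log2 scale, and 1 of these, Mcm10, was called lower in Ova, against 6 with mouse as a block. Among the other 32 genes 10 were called lower in Ova without the block and 16 with it. The median SE of the log2 fold change in Ova was 0.303 over the 42 genes without the block and 0.147 with it. In the fit without the block, the median log2 fold change was -0.51 for the 10 genes and -0.42 for the 32. The limit of 1 was met by other genes if the DMSO Ova group was left out of the mouse means: Cdc6 (0.787) and Tyms (0.91) then fell under it, and Mcm7 (1.05), Pole (1.05) and Rrm1 (1.08) were above it. The 10 genes were picked in these data for a difference between mice, which widens the SE without the block and is taken out by it. Their few calls and their gain with the block follow in part from that choice. Whether the order of the mice set which genes were called was not tested.

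Other measures moved with the mice. The 8 myeloid progenitor markers had mean summed levels of 0.811, 1.41 and 4.21 CPM in mice A, B and C, and ranged from 0 to 5.80 CPM in DMSO Ova, 1.16 to 2.37 in iBET Ova, 1.18 to 4.96 in DMSO IC and 0.872 to 3.72 in iBET IC. The 7 neutrophil markers of 8 in the table had mean summed levels of 23.8, 42.6 and 55.0 CPM, and ranged from 20.0 to 57.3, 26.8 to 59.6, 20.6 to 53.0 and 27.6 to 49.98 CPM in the 4 groups in the same order. No tested marker of either list was called with iBET by edgeR (5 neutrophil and 2 progenitor genes passed the filter). Their part in the order of the mice was not tested.

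**Figure D4:**
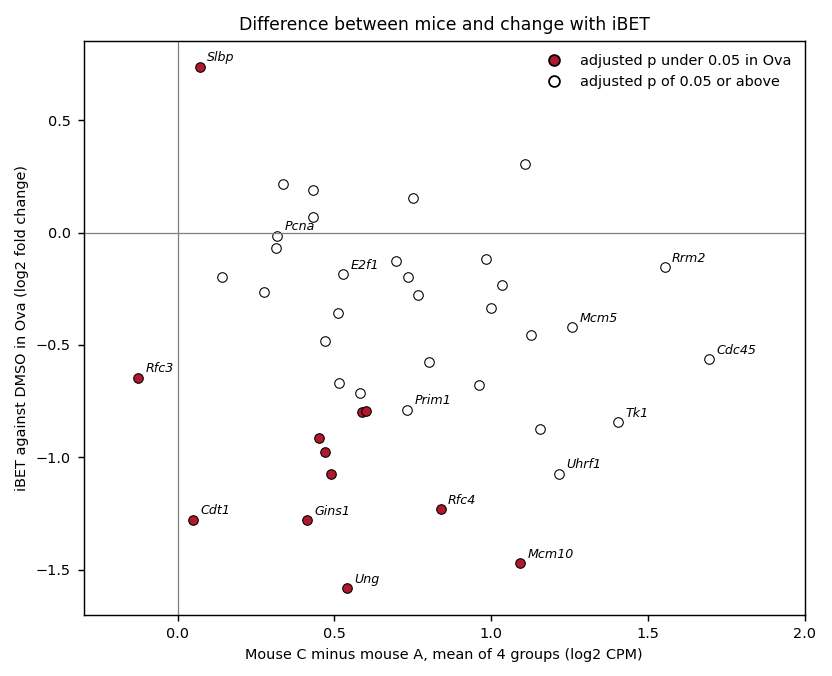
Difference between mouse C and mouse A for each of the 42 genes (mean of 4 groups, log2 CPM) against the log2 fold change for iBET against DMSO in Ova. Filled points passed at an adjusted p under 0.05; Cdt1 and Slbp lie near 0 on the horizontal axis, while Rrm2, Cdc45, Tk1 and Mcm5 lie far to the right with open points.

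After removal of the group means, the genes outside the 42 whose log2 CPM was most like the mean of the 42 over the 12 libraries were Ncapd2, Diap3, D17H6S56E-5, Zwilch and Sgol2a. Their Pearson correlations were between 0.992 and 0.996, among 9388 genes compared, and are a description of libraries that share mice and depth. Ncapd2 encodes a condensin subunit and Zwilch a protein of the kinetochore. Within the group, each gene was compared with the mean of the other 41 in the same way. Mcm4, Rrm2 and Uhrf1 were closest to that mean (0.98, 0.98 and 0.98), and Rfc3 (-0.18), Pole2 (0.23), Cdt1 (0.27), Slbp (0.37) and Orc6 (0.37) were farthest from it.

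Other genes of the pathway were followed in 9 lists. Over all genes tested, 14.2% were called lower and 17.1% higher in Ova, and 15.8% and 19% in IC. With mouse as a block, 17.9% and 19.8% were called lower. The counts below stand beside these shares, and no list was tested as a set. Of 8 further ORC and licensing genes, 1 fell (Orc3) and 2 rose in Ova, and 2 rose in IC. Mcm9, an MCM-family helicase of repair, rose by 0.65 and 0.85 on the log2 scale in Ova and IC, and Orc2 by 0.27 and 0.25. Of 11 genes of origin firing and the fork, 4 fell in Ova and 3 in IC. Timeless and Tipin, which form a fork protection complex, had log2 fold changes of -0.99 and -1.06 in Ova and of -1.52 and -0.82 in IC.

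Of 15 further subunits of polymerases, clamp loaders and RPA, 5 fell and 2 rose in Ova, and 4 fell in IC. Dscc1, of the loader used in cohesion, had log2 fold changes of -1.78 and -1.45 in Ova and IC, and the nuclease-helicase Dna2 of -1.05 and -0.88. Of 22 further genes of nucleotide supply, 5 fell and 5 rose in Ova and 4 fell and 4 rose in IC. Dctd, a dCMP deaminase, had log2 fold changes of -1.29 and -2.23, while Impdh2, of guanine nucleotide synthesis, rose by 0.95 and 0.68 and the mitochondrial thymidine kinase Tk2 by 0.94 and 0.92. Of 9 further genes of chromatin replication, 2 fell in each stimulation, the chromatin remodeller gene Hells (-1.21 and -1.06 on the log2 scale) and Ssrp1 of the histone chaperone FACT (-0.84 and -0.90).

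Of 26 genes of replication-coupled repair and checkpoint, 4 fell in Ova, and 4 fell and 1 rose in IC. Those that fell were near the share over all genes. In the block fit 10 were called lower in Ova and 8 in IC. The checkpoint kinase gene Chek1 had log2 fold changes of -1.48 and -1.64. Of 12 E2F and pocket protein genes, 3 fell and 1 rose in each stimulation, and 6 and 8 were called lower with the block. E2f2, from a mean of 22.2 to 4.98 CPM in Ova, had log2 fold changes of -2.21 and -1.95, and E2f5 rose by 1.05 and 1.16. Of 11 G1/S cyclins and kinases, 2 fell and 2 rose in each, and 6 and 5 were called lower with the block. The cyclin E gene Ccne2 had log2 fold changes of -1.04 and -1.24, and the cyclin-dependent kinase inhibitor genes Cdkn1a and Cdkn1b rose, Cdkn1a from 134 to 258 CPM in Ova and from 172 to 393 CPM in IC.

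Of 20 genes of G2 and mitosis, 1 fell in Ova (Bub1b, log2 fold change -1.48 ± 0.49, adjusted p = 0.0407) and 0 in IC by edgeR (1 at an unadjusted p under 0.05, 1 by DESeq2). Their medians were -0.83 and -0.65 on the log2 scale, and 17 and 15 of the 20 were called lower in the block fit.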

How the data were processed

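RNA of 12 BMDM libraries was sequenced (SMARTer stranded pico kit). The authors trimmed reads with Trim Galore, aligned them to mm10 with HISAT2 and counted reads per gene symbol with featureCounts, and the deposited counts are not normalized. The strand setting and annotation of the counting are not given in the sources used here. A second deposited table, the same counts divided by DESeq2 size factors, was not used. Genes were filtered with filterByExpr (count minimum 10), scaled by TMM and fitted in edgeR 4.0.16 (R 4.3.3, glmQLFit, robust) with 1 mean per group over the 12 libraries. The study used DESeq2 and removed batch effects with the sva package, a combination not run here. Alternatives were DESeq2 1.42.0 without surrogate variables and edgeR with 1 surrogate variable (sva 3.50.0). Other filters and scalings, mouse as a block, and fits leaving out each library or mouse were also run. P-values were adjusted over the 11468 genes tested by the Benjamini-Hochberg method, and a gene is called at an adjusted p under 0.05. The edgeR fit without the block was tested on simulated counts that held no difference between mice, and the block fit was not tested in this way. CPM refers to TMM-scaled library totals, and log2 CPM to a prior count of 2. Library totals of 7549849 to 17387639 counts limit the precision of genes with few counts.

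The labels name the animal of each library, so the libraries of a mouse are paired. Deviations from the group means correlated with a median of 0.263 over 18 pairs of libraries of the same mouse (12 over 0.1) and -0.134 over 36 other pairs. Such deviations cancel out within a group, so positive values for pairs of a mouse push the other pairs below 0. The second median therefore adds nothing to the first. Of the 6 pairs of a mouse not over 0.1, 5 hold iBET Ova A or B, so the block was also fitted without these 2 libraries, an alternative chosen after seeing the data. The members and gene lists were chosen with earlier results of these data known. Values in every library are given for Pcna, Mcm5, E2f1 and Rrm2, and for up to 4 called genes with the largest fall and 4 with the largest rise in each pairwise comparison among those with a mean count of at least 50. Mcm6 and Ung were added after their values were seen. Up to 4 called genes were named from each other list. Promoter sequences are from RefSeq (GRCm38.p6), gene positions and exon lengths from GENCODE for GRCm38.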

Additional observations from a re-analysis of the deposited data

How the results depend on the processing

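With mouse as replicate block the number of the 42 genes called lower in Ova rose from 11 to 22 in edgeR and 23 in DESeq2, and in IC from 11 to 19 and 20. The block without iBET Ova A and B, chosen after seeing the data, left iBET Ova C as the only library of its group. The median log2 fold change in Ova was then -0.35. The pairing changed the call of no gene to higher. At an adjusted p under 0.01 the counts were 4 and 3, and with 1 surrogate variable the count in IC was 17. Leaving out each library or mouse gave 1 to 14 genes lower in Ova and 1 to 13 in IC, fewer samples being fitted. The median log2 fold change then ranged from -0.84 to -0.23 in Ova and from -0.68 to -0.087 in IC, and between IC and Ova from -0.36 to 0.10 in DMSO and from -0.29 to 0.20 in iBET. With 1 surrogate variable it was -0.58 for iBET in IC and -0.16 for IC against Ova in iBET. Pcna and Rrm2, not called, changed sign. Leave-outs gave log2 fold changes of -0.19 to 0.095 in Ova and -0.055 to 0.20 in IC for Pcna, and of -0.66 to 0.46 and -0.48 to 0.70 for Rrm2. With 1 surrogate variable the value of Pcna, iBET against DMSO in IC, was -0.00965 and that of Rrm2 -0.31. The cause of these changes was not tested. Cdt1 and Slbp kept direction and call under every alternative run. Genes read with few counts, such as Ung, and the sparse library DMSO Ova A limit precision.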
